A study of Mus musculus with 2 samples.

Results

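The genes described here are the complement system in the embryonic mouse liver: 36 genes of 43346 annotated ones, named one by one as components, receptors and regulators of complement and found in the tables by gene ID. They comprise 6 genes of the classical pathway, 8 of the lectin pathway, C3 itself, 3 of the alternative pathway, 7 of the terminal pathway, 3 receptors, 4 soluble regulators and 4 membrane regulators. All 36 were matched 1 to 1, and mouse C5 is listed under its symbol Hc. The list goes by gene name and has no threshold on a measured value.

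Liver was taken from B6NCrl mouse embryos at 13.5 days of development, pooled from males and females, with no genetic change or treatment named in the labels. The 2 biological replicates form the only group, so there was no other genotype, age or tissue to compare with and no test of a condition. Both carry the same donor entry in the labels, and an SD over n = 2 therefore measures only the spread between these tissue samples. Libraries started from 10 ng of RNA above 200 nt, to which spike-in RNA had been added, and held 39644066 (replicate 1) and 38150988 (replicate 2) expected counts, of which 1.16% and 1.88% fell on spike-ins.

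Complement is a cascade of plasma proteins that marks particles for uptake and punches pores in membranes. The classical pathway starts when C1q binds antibody or other ligands, the lectin pathway when collectins or ficolins bind sugars, and both lead through C4 and C2 to the cleavage of C3; the alternative pathway amplifies that cleavage through factors B and D and properdin. Cleavage of C5 then starts assembly of the pore from C6, C7, C8 and C9, while soluble and membrane regulators stop the cascade on the body's own cells. In the adult, hepatocytes make most of the circulating components, whereas C1q and properdin come mainly from myeloid cells and factor D from fat.

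The labelled tissue was checked against marker lists. TPM is the authors' measure of transcript abundance per length, scaled to a fixed sum in each library. All 9 hepatoblast markers (Afp highest, at a mean of 6219 TPM) and all 5 erythroid markers were at or above 1 TPM in both libraries, as were 9 of 10 macrophage markers, 9 of 9 granulocyte markers, 6 of 6 endothelial and 7 of 7 mesenchymal ones. No B-lymphoid marker (0 of 4) and no adipocyte marker (0 of 4) reached 1 TPM, and the adipocyte genes had at most 3 counts in a library. Summed TPM of 4 heart muscle genes was 87.0 in replicate 2 and 36.3 in replicate 1. In whole tissue, fewer cells of a type and less RNA per cell cannot be told apart, and this applies to every level below.

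The sequences just upstream of 8 members are shown because these pairs lie close together or are close relatives and yet differed in level: C3 and its relative Hc, the mannose-binding lectins Mbl1 and Mbl2, the neighbours Cr1l and Cd46, and the C1q chains C1qb and C1qc. RefSeq promoter windows on GRCm38.p6 were found for 27 of the 36 members. The printed bases are those before the RefSeq start that also lie outside the gene as GENCODE annotates it, written 5′ to 3′ on the gene's strand. Capitals mark motif matches on either strand and, in Mbl1 and Mbl2, the longest run of letters that both share.

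C3 (chr17:57228137-57228386, minus strand): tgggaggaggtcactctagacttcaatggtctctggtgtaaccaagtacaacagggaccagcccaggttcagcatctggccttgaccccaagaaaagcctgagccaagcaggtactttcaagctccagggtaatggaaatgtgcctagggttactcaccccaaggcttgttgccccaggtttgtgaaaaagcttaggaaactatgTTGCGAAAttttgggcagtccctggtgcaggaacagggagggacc
Hc (chr2:35061439-35061662, minus strand): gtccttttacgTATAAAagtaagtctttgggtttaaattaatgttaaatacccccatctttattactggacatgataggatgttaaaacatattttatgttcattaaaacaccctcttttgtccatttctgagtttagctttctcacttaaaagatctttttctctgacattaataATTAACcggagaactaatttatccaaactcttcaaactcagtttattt
Mbl1 (chr14:41151206-41151455, plus strand): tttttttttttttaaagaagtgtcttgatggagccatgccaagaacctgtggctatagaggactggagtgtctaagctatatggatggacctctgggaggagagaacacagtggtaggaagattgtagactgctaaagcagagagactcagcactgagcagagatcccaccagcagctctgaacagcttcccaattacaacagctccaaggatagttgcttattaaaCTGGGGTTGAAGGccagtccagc
Mbl2 (chr19:30232678-30232927, plus strand): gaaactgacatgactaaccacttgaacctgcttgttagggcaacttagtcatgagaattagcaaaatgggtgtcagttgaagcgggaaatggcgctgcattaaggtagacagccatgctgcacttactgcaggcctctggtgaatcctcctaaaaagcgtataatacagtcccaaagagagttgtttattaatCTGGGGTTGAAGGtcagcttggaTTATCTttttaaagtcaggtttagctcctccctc
Cr1l (chr1:195131587-195131820, minus strand): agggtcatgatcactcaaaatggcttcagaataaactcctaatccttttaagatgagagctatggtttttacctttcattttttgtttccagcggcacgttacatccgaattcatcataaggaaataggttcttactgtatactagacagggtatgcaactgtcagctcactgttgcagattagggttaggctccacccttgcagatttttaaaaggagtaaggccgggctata
Cd46 (chr1:195092250-195092498, minus strand): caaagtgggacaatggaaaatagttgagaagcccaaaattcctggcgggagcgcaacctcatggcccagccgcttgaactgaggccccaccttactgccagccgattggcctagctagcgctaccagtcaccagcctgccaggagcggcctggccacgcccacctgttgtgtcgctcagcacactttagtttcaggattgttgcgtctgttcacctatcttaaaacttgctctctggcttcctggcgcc
C1qb (chr4:136886201-136886450, minus strand): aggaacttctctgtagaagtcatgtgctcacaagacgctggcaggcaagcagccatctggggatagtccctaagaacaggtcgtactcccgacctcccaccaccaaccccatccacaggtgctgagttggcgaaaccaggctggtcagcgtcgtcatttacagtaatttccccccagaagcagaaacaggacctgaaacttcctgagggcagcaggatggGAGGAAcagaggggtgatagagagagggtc
C1qc (chr4:136893066-136893164, minus strand): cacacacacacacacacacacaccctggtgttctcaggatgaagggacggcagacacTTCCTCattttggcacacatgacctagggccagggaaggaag

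Over 250 bases before the start, the letters of 6 motifs were counted on both strands in 32851 mouse promoters, with motifs chosen after some of these sequences had been seen. The core of the hepatocyte factor HNF1 (GTTAAT) was in 8 of the 27 member promoters (C4bp, Cr2, Hc, C8a, C8b, C1ra, C7 and Cfp) and in 6.43% of all promoters. The C/EBP letters TTGCNNAA were in 3 members (C3, C9 and Fcnb) and in 9.56% of all, and the TATA box TATAAA in 3 (Hc, C3ar1 and C7) and 12.4% of all. The letters GAGGAA, bound by the myeloid factor PU.1, were in 4 members (C1qb, C1qc, Fcna and Cd59a) and in 23.3% of all. GATA letters (AGATAA or TGATAA) were in 5 members (Mbl2, C3ar1, Colec11, C6 and C7) and 16.6% of all, and the GC box GGGCGG in 4 (Cd55, Cr2, C1qc and C3ar1) and 32.7% of all. No printed base belonged to more than 1 motif. In the lines above, positions count from the RefSeq start. The C3 match lies at -45 to -38, the C1qb match at -30 to -25 and the marked C1qc match at -193 to -188. For C1qc 99 of the 250 bases are printed and 151 left out, and its GC box does not lie within the printed ones. In Hc the TATAAA letters lie at -239 to -234 and the HNF1 letters at -74 to -69. The GATA letters of Mbl2 lie at -34 to -29. Mbl1 and Mbl2 share 13 letters in a row, at -23 to -11 in Mbl1 and -57 to -45 in Mbl2, although their levels were far apart (below). Cr1l and Cd46 held none of the motifs in the printed bases. A match is a run of letters and was not tested as a binding site.

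Most of the system was transcribed at this stage. Of the 36 genes, 28 were at or above 1 TPM in both libraries, against 52.1% of 21474 protein-coding genes. The other 8 were below 1 TPM in both: the membrane regulator Cd46, the soluble regulator C4bp, the lectin Mbl2, the pore components C6, C7 and C9, the receptor Cr2 and the protease Cfd. Together the 36 held 0.0927% ± 0.00697 (SD, n = 2) of the TPM of all genes. Their levels ran from no count at all (Cfd) to 113.6 TPM (Cfi), with a median of 13.0 ± 0.827 TPM (SD, n = 2). In the order of mean levels, the ranges of the 2 libraries overlapped in 22 of the 35 steps from one gene to the next and did not in 13.

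**Figure D1:**
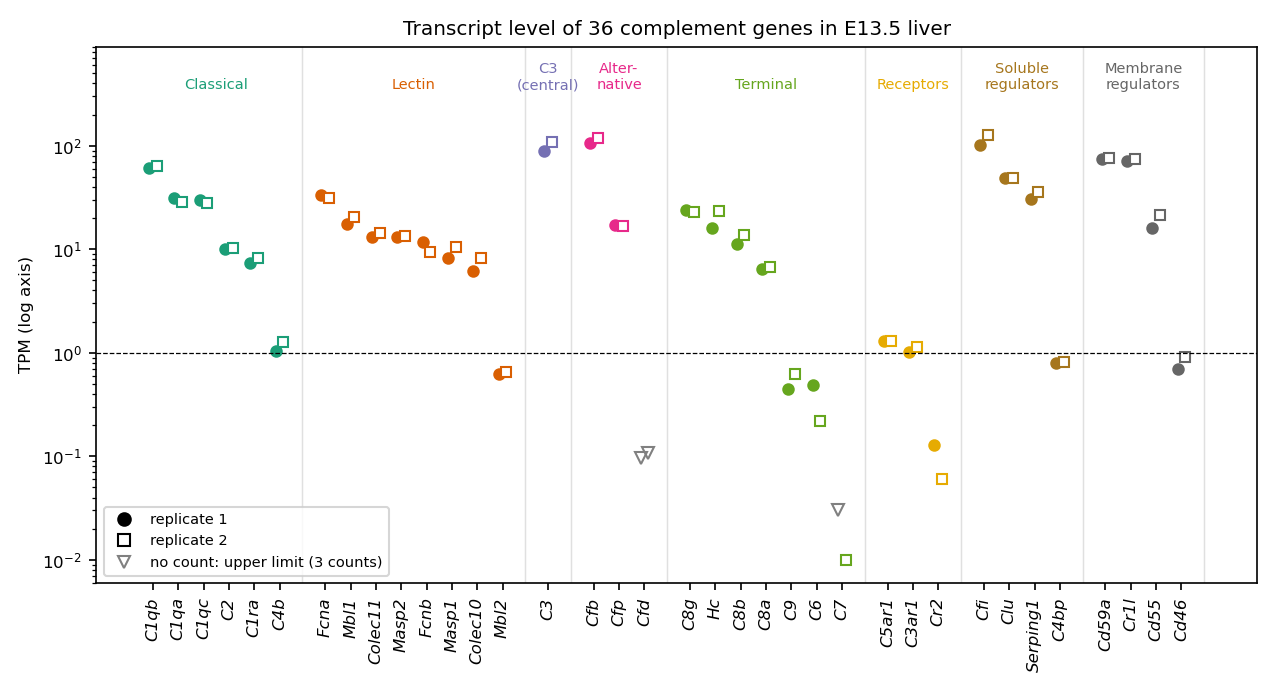
TPM on a log axis of the 36 complement genes grouped by role, with a filled circle for replicate 1, an open square for replicate 2 and a dashed line at 1 TPM; grey triangles give the level that 3 counts would have where no count was seen. Cfi, Cfb and C3 stand highest, the means of Cfi and Cfb being 113.6 and 113.0 TPM, while 8 genes lie under the line in both libraries.

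Of the classical pathway, all 6 genes were at or above 1 TPM in both libraries, with a class median of 19.5 ± 0.477 TPM (SD, n = 2). The 3 chains of C1q, the recognition molecule, were the most abundant. C1qb had 60.6 TPM in replicate 1 and 63.5 in replicate 2, C1qa had 31.5 and 28.6, and C1qc had 29.7 and 28.0. C1q is built from equal numbers of the A, B and C chains, yet the chains were not equal at the transcript level: C1qb over C1qc was 2.04-fold in replicate 1 and 2.27-fold in replicate 2, and C1qa over C1qc 1.06-fold and 1.02-fold. C1ra, the protease that C1q activates first, was lower than any chain, with 7.31 and 8.15 TPM. C2, which carries the catalytic site of the C3 convertase, had 10.0 and 10.4 TPM. C4b, the mouse gene for complement C4, was the lowest of the class, with 1.04 and 1.27 TPM from 154 and 115 counts. These levels take in all its transcripts. The only protein-coding one, C4b-201, had 0.730 and 0.550 TPM, below 1 TPM in both libraries. C4a, the near-identical neighbour of C4b, had 0.820 and 0.450 TPM from 16.3 and 9.38 counts, and shares reads with it. The authors' posterior SD was 1.73 and 1.67 counts for each gene, small beside the counts of C4b but not beside those of C4a, whose level is uncertain. The log2 ratio of C4b over C4a was 0.81 ± 0.71 (SD, n = 2), and by the authors' posterior mean TPM both stood at 1.16 in replicate 1, with 1.36 for C4b and 0.840 for C4a in replicate 2.

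In the lectin pathway 7 of 8 genes were at or above 1 TPM in both libraries, and the class median was 12.2 ± 0.262 TPM (SD, n = 2). On the log2(TPM + 0.1) scale the lectin median minus the classical median was -0.50 ± 0.02 (SD, n = 2). Such differences use medians of log2 values, which for an even number of genes are not the log of the median TPM. Among the recognition molecules the ficolin Fcna led, with 33.7 and 31.2 TPM, and its relative Fcnb had 11.8 and 9.44 TPM. The log2 ratio of Fcna over Fcnb was 1.61 ± 0.14 (SD, n = 2). Fcna is known in mice from macrophages of liver and spleen, and Fcnb from granulocytes and their precursors. The mannose-binding lectins differed most: Mbl2 had 0.630 and 0.650 TPM (24 and 22 counts), against 17.4 and 20.3 TPM for Mbl1, a log2 ratio of -4.67 ± 0.13 (SD, n = 2). Of the collectins that circulate as a pair, Colec11 had 13.0 and 14.4 TPM and Colec10 had 6.11 and 8.23 TPM, a log2 ratio of 0.94 ± 0.20 (SD, n = 2). The ranges of these pairs did not overlap.

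The proteases of the lectin pathway were closer to each other. Masp2, which cleaves C4 and C2, had 13.3 and 13.5 TPM, and Masp1, which activates it, had 8.18 and 10.6 TPM. The log2 ratio of Masp2 over Masp1 was 0.52 ± 0.25 (SD, n = 2). Masp1 is known to give several proteins by splicing, but has a single transcript in the tables, so its products could not be separated. The Masp2 value also depends on which transcript is counted, as given below.

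C3, on which all 3 routes meet, had 89.8 TPM in replicate 1 and 108.3 in replicate 2 (14439 and 16411 counts). Factor B (Cfb), the C2 counterpart of the alternative pathway, was at a like level, with 107 and 119 TPM. C3 over Cfb had a log2 ratio of -0.19 ± 0.08 (SD, n = 2), and the ranges of the pair overlapped. Properdin (Cfp), which stabilises the alternative convertase, had 17.3 and 16.6 TPM. Factor D (Cfd), the protease that cleaves factor B, had no count in either library, which allows up to 0.0961 TPM in replicate 1 and 0.107 TPM in replicate 2 (3 counts per library). Fat is the main known source of this protease in adults, and the 4 adipocyte markers had at most 3 counts in a library; their bearing on Cfd was not tested. The alternative median minus the classical median was -0.02 ± 0.03 (SD, n = 2) on the log2 scale, but it rests on 3 genes of which 1 had no count; without genes under 10 counts it was 1.35.

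The terminal pathway was uneven. Hc, the gene of C5, had 16.2 and 23.5 TPM, and the C8 genes C8a, C8b and C8g were all above 1 TPM, but the 3 other pore components were not. C8g, the lipocalin chain, had 24.1 and 23.2 TPM, C8b had 11.3 and 13.7, and C8a had 6.43 and 6.70, although the protein holds 1 of each chain. The log2 ratio of C8a over C8g was -1.83 ± 0.08 and that of C8b over C8g -0.93 ± 0.24 (SD, n = 2 each). These levels take in all transcripts of a gene. Protein-coding ones held 54.8% of TPM on average in C8g, 66.3% in C8a and 100% in C8b. The coding C8g-201 and C8g-202 had 8.04 and 5.23 TPM in replicate 1, and 6.92 and 5.75 TPM in replicate 2. The gene ratios are therefore not ratios of coding transcripts. C9, which polymerises into the pore wall, had 0.450 and 0.630 TPM from 33 and 42 counts. C6 had 0.490 and 0.220 TPM from 28 and 19 counts. C7 had no count in replicate 1, where 3 counts would be 0.0304 TPM, and 1 count in replicate 2. The terminal median minus the classical median was -1.37 ± 0.05 (SD, n = 2) on the log2 scale, and -2.28 with means of log2 levels. Hc, a homologue of C3, was below it in both libraries, with a log2 ratio of C3 over Hc of 2.33 ± 0.18 (SD, n = 2).

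Receptors had the lowest class median, 1.08 ± 0.0990 TPM (SD, n = 2), which was -3.87 ± 0.13 (SD, n = 2) relative to the classical median on the log2 scale. C5ar1, the receptor of the anaphylatoxin C5a, had 1.29 and 1.30 TPM (116 and 105 counts), and C3ar1, the receptor of C3a, had 1.01 and 1.15 TPM (161 and 165 counts). Cr2, a receptor of B lymphocytes and follicular dendritic cells, had 0.130 and 0.0600 TPM from 10 and 8 counts, beside B-lymphoid markers of 0.01 to 0.495 TPM on average. The authors' posterior mean TPM of Cr2 was higher, 0.770 in each library, so its level at this depth depends on the estimator. The same holds for the B-lymphoid marker Pax5, with a posterior mean TPM of 1.01 and 1.05 from 2 and 0 counts.

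Among the 36 members, with all kept, the regulators had the highest medians of the classes with more than 1 gene. Without genes under 10 counts, which drops Cfd, the alternative difference of 1.35 lay above both of theirs. The soluble regulators had a median of 40.8 ± 1.85 TPM and the membrane regulators one of 45.7 ± 2.87 TPM (SD, n = 2 each). Between medians of log2 values, the difference from the classical class was 1.22 ± 0.09 for soluble and 1.09 ± 0.18 for membrane regulators (SD, n = 2 each), so the order of these classes depends on how the median is taken. Cfi, the protease that degrades C3b and C4b, was the highest of all 36 on average, with 101 and 126 TPM, although its range overlapped that of Cfb. Clusterin (Clu), a chaperone that also blocks the pore and is expressed in many tissues, had 48.5 and 48.8 TPM. Serping1, the C1 inhibitor, had 30.6 and 35.4 TPM. C4bp, a cofactor of factor I, stood apart with 0.790 and 0.820 TPM (73 and 65 counts). With the mean of log2 levels in place of the median, the differences from the classical class were 0.60 for soluble and 0.39 for membrane regulators.

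Membrane regulators split in the same way. Cd59a, which blocks the pore, had 73.7 and 75.7 TPM, and Cr1l (also called Crry), the rodent regulator that acts on C3 and C4 fragments, had 71.3 and 74.1 TPM. Cd55, which speeds decay of the convertases, had 16.1 and 21.4 TPM. Cd46, known in mice chiefly from the testis, had 0.690 and 0.920 TPM from 38 and 45 counts. Cr1l over Cd46 was 103-fold in replicate 1 and 80.6-fold in replicate 2, the widest of the pairs whose ratio is given here. Cd59a over its copy Cd59b had a log2 ratio of 2.65 ± 0.01 (SD, n = 2). The copy of Cd55, Cd55b, had 1.33 and 0 counts, and no ratio is given for it, although the pair is counted among the family pairs below.

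**Figure D2:**
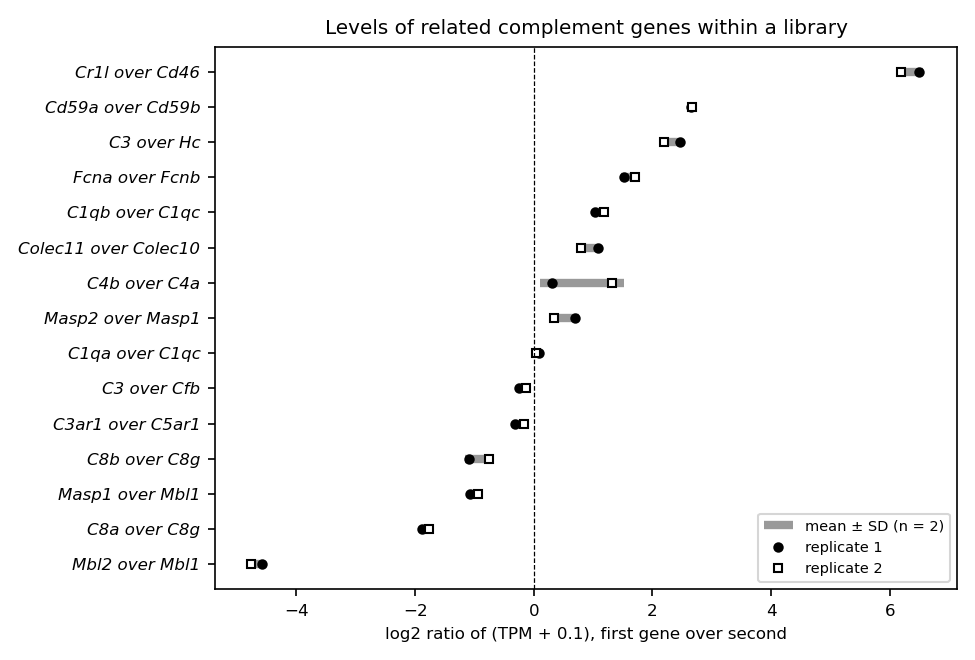
Log2 ratio of (TPM + 0.1) between 15 pairs of related complement genes within each library, first gene over second; filled circles are replicate 1, open squares replicate 2 and grey bars the mean ± SD (n = 2). Cr1l over Cd46 lies farthest to the right at 6.34 and Mbl2 over Mbl1 farthest to the left at -4.67.

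Of 25 other complement genes on a list of the wider pathway, 16 were at or above 1 TPM in both libraries. C1s1, the partner protease of C1ra, had 19.0 and 21.4 TPM, above C1ra itself, while the copies C1rb and C1s2 had at most 1.1 counts in a library. Vitronectin (Vtn), which keeps the pore complex out of membranes, had 270 and 314 TPM. Cpn1, 1 chain of the enzyme carboxypeptidase N, which inactivates C3a and C5a, had 41.5 and 51.5 TPM. Of the 8 receptors on that list, 5 were at or above 1 TPM in both libraries, with medians of 1.93 TPM in replicate 1 and 1.92 in replicate 2. Among them, the C1q-binding proteins Calr and C1qbp, which also have general roles in the cell, had means of 504 and 299 TPM. Vsig4, the C3b receptor of resident macrophages, had 0.12 and 0.11 TPM from 6 and 5 counts, beside 9 of 10 macrophage markers at or above 1 TPM. The second C5a receptor, C5ar2, had 0.690 and 0.630 TPM.

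Close neighbours could lie far apart in level. Of the 36 members, 17 lie within 1 Mb of another (13 pairs on GRCm38). On chromosome 1, Cr1l (195097382 to 195131586) lies 5133 bp from Cd46 (195036826 to 195092249) and 5225 bp from Cr2 (195136811 to 195176716), all on the minus strand, and only Cr1l was at or above 1 TPM. On chromosome 17, Cfb (34856374 to 34862518) lies 86 bp from C2 (34862604 to 34898265), its homologue, on the minus strand. Mean TPM was 113.0 for Cfb, 10.2 for C2 and 1.16 for C4b, which lies 112492 bp from Cfb. The C1q genes on chromosome 4 lie within 9730 bp of each other and were within 2.15-fold on average. C8a and C8b, also on chromosome 4 and 11131 bp apart on opposite strands, had mean TPM values of 6.57 and 12.5. C6 and C7 on chromosome 15 were both below 1 TPM.

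**Figure D3:**
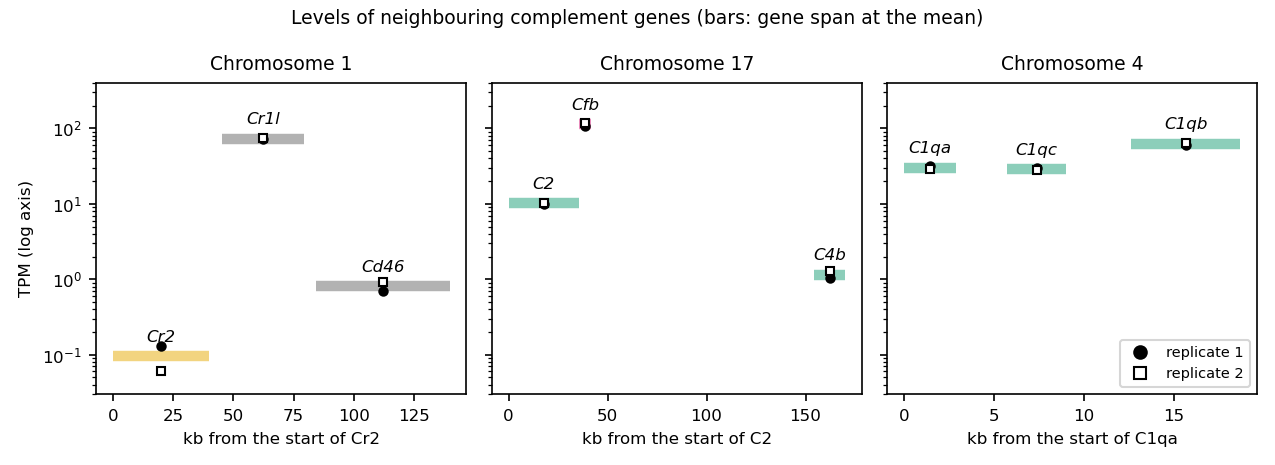
TPM on a log axis against distance in kb from the start of the leftmost gene, for neighbouring complement genes on chromosomes 1, 17 and 4; bars span each gene at its mean, filled circles are replicate 1 and open squares replicate 2. Cr1l stands between Cr2 and Cd46, whose mean levels were 0.095 and 0.805 TPM against 72.7 TPM for Cr1l.

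Exons of 7 members overlap those of another gene, and the sources used here do not say whether counting used strand. Cfb and C2 both overlap the readthrough gene Gm20547, on the same strand, which had 0 and 0.310 TPM. C2 also shares 161 exonic bases with Zbtb12, on the opposite strand, which had 0.480 and 0.720 TPM. For Masp2 the overlapping gene is Tardbp, an RNA-binding protein gene on the opposite strand, which had 162 and 214 TPM. The full-length Masp2-201 shares 1817 of its 3058 bases with exons of Tardbp, while Masp2-202, Masp2-203 and Masp2-204 share none. The authors' posterior SD of the count was at most 2.26% of the count for any member, and was 0 in both libraries for 27 of them. The largest share was that of Masp2 in replicate 2, with an SD of 10.56 on 466.8 counts. How many of the Masp2 reads came from Tardbp was not tested.

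Transcript shares were examined for the 19 members with at least 2 annotated transcripts and a mean of at least 1 TPM. The leading transcript was the same in both libraries in 18 of them, C4b being the exception. By the mean over libraries it was protein-coding in all 19, but in replicate 2 the retained-intron C4b-203 led C4b with 48.4% of its TPM. It held over 80% of the gene's TPM in 9 genes, such as C8b-201 (100%), C1qc-201 (99.6%), Cfp-201 (99.2%) and Serping1-201 (98.7%). It held under 50% in Cfb (Cfb-206, 46.9% ± 1.95), Cr1l (Cr1l-201, 47.6% ± 1.48) and C8g (C8g-201, 31.6% ± 2.40; SD, n = 2 each). In C8g the processed transcript C8g-204 followed with 27.6% ± 1.96, and by counts C8g-202 led on average (30.1%) and in replicate 2 (32.0%), while C8g-201 led in replicate 1 (29.9%). For Hc, Hc-201 held 59.96% of TPM but 93.9% of counts, since the other transcripts are short.

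In Masp2 the leading transcript was a short one. Masp2-202, of 738 nt in 5 exons with 555 coding nt, had 8.84 TPM in replicate 1 and 9.52 in replicate 2, and held 68.7% ± 2.94 of the gene's TPM (SD, n = 2). The full-length Masp2-201, with 2055 coding nt in 11 exons, had 1.55 and 1.81 TPM, and the retained-intron Masp2-204 had 2.88 and 2.12 TPM. By counts the shares were closer, 43.3% for Masp2-202 and 36.7% for Masp2-201. The gene is known to give a short product without the protease domain (MAp19) beside the protease, and whether Masp2-202 encodes it was not checked here. With Masp2-201 alone, the protease transcript would stand below the 8.18 and 10.6 TPM of Masp1. For Cd59a, the coding Cd59a-201 had 50.3 and 50.2 TPM and the processed transcript Cd59a-202 had 22.7 and 25.2 TPM, 32.0% ± 1.77 of the gene (SD, n = 2). Cd55-201, the longest coding form of Cd55 in the tables, held 67.1% ± 4.15 (SD, n = 2).

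**Figure D4:**
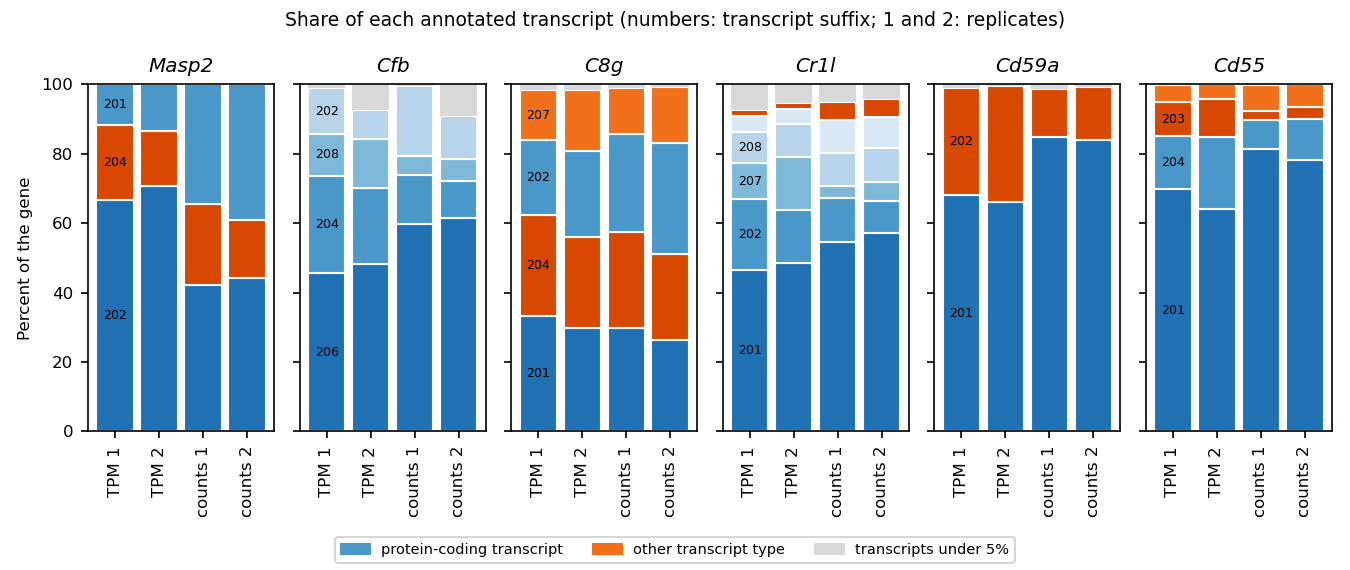
Percent of each gene in its annotated transcripts for Masp2, Cfb, C8g, Cr1l, Cd59a and Cd55, as stacked bars from TPM and from expected counts in replicates 1 and 2; blue is protein-coding, orange another transcript type, and grey the transcripts under 5%. For Masp2 the bottom segment is Masp2-202, with 68.7% of TPM and 43.3% of counts on average.

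Between replicates no complement gene with enough counts was past 1.5-fold. For the 33 members with a mean count of at least 10, the log2 ratio of expected counts (replicate 2 over replicate 1, scaled with edgeR's TMM factors) had a median of -0.07 and ran from -0.54 (C6) to 0.40 (Hc), against a median of 0.0046 over 15997 genes. None of the 33 was past that fold in either direction, and of all genes 3.43% were higher and 4.68% lower past it. Among 33 genes, shares this small differ little from none, so this is not read as a trait of the members. With spike-in scaling, which shifts all genes, 22 of the 33 and 59.5% of all genes were lower past 1.5-fold. The exact 95% counting interval lay wholly above 0 in 7 of the 33, against 21.1% of all genes, and wholly below 0 in 10, against 17.9% of all. Chi-square over all genes was 23.1 per degree of freedom, so the libraries differed by more than counting error. There is 1 library on each side, and no test was made.

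Hc stood highest, with 2746 counts in replicate 2 and 2087 in replicate 1 (1.32-fold after scaling, interval 0.32 to 0.48 on the log2 scale). Colec10 (0.28), Masp1 (0.22), C3 (0.19), Cd55 (0.19), Cfi (0.17) and Cfb (0.05) were the others whose interval lay above 0. Those below 0 were C4b (-0.42), Fcnb (-0.40), C1qa (-0.29), Fcna (-0.24), C1qc (-0.24), Cfp (-0.21), C8g (-0.19), Cd59a (-0.14), Clu (-0.14) and Cr1l (-0.10). Beside these, 8 of 9 granulocyte markers and 5 of 9 macrophage markers with a ratio were below 0 (median -0.25, range -0.49 to 0.01, and median -0.06, range -0.34 to 0.15), and summed TPM was 1088 in replicate 2 and 1150 in replicate 1 for granulocyte markers and 117 and 111 for macrophage markers. Of 6 endothelial markers 5 were above 0 (median 0.22), and hepatoblast markers ran from -0.17 to 0.16. All 4 heart markers were above 0 (median 1.53, range 0.36 to 2.48). Their part in the member ratios was not tested. With the median of genes of like transcript length subtracted, a setting chosen after the data were seen, C1qa was at -0.16, C3 at 0.08, Cd59a at -0.07, Cr1l at -0.03 and C1qb at 0.01, while Fcnb was at -0.30 and Hc at 0.33.

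**Figure D5:**
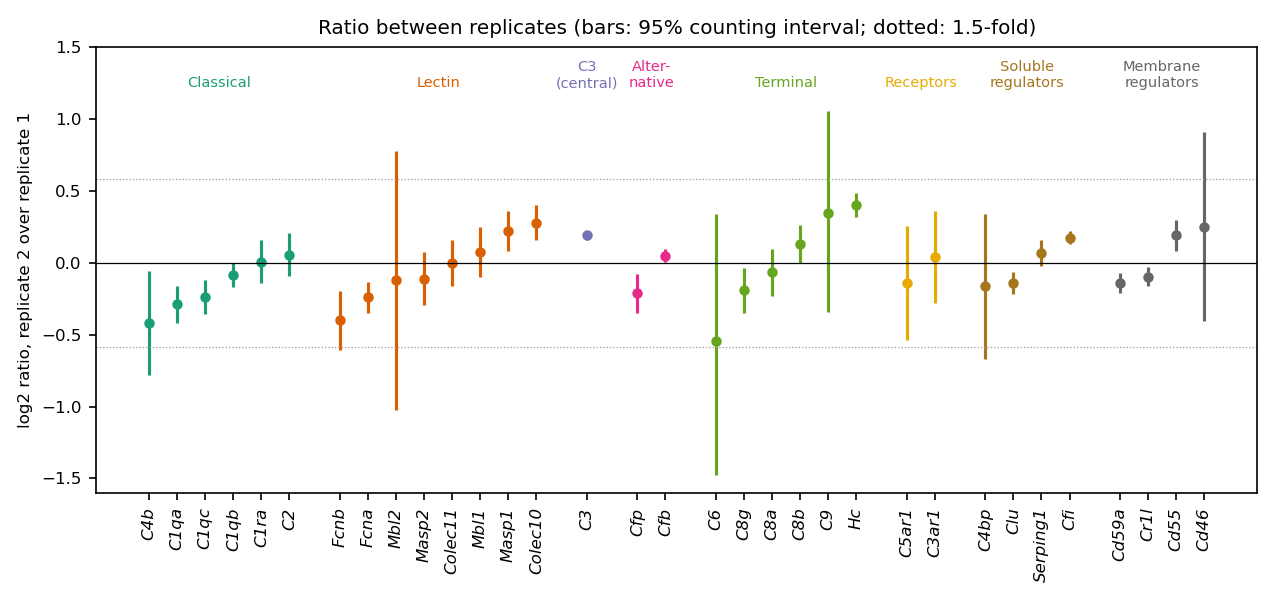
Log2 ratio of replicate 2 over replicate 1 for the 33 members with a mean count of at least 10, grouped by role, with bars for the exact 95% counting interval and dotted lines at 1.5-fold. No point lies beyond the dotted lines; Hc is the highest at 0.40, and the widest intervals belong to genes of few counts such as C6 and Mbl2.

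Ratios of counts and of TPM can point different ways, because TPM also takes in the mix of transcripts and the whole library. C4b had fewer counts in replicate 2 but a higher TPM there, with 1.27 against 1.04, as C4b-201 held 43.0% of its TPM in replicate 2 and 70.2% in replicate 1. Scaling by spike-ins moved the median of all genes by -0.64 on the log2 scale.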

How the data were processed

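Total RNA from liver of day 13.5 embryos was sequenced in 2 libraries, each deposited with a gene and a transcript table. Per the deposited readme, the build is mm10 with GENCODE M4; the sources used here name neither aligner nor quantification tool, nor strand use. The authors deposited expected counts, which are estimated read counts per gene or transcript, and TPM, scaled to a fixed sum over all entries, tRNAs and spike-ins included. The posterior SD of the count and the bounds of TPM are deposited signal columns, per the file headers.

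Names and coordinates came from GENCODE M21 on GRCm38 by gene ID (42462 of 43346 genes received a symbol). Gene totals leave out 26248 transfer RNA entries and 96 spike-ins. The members and lists were chosen with earlier results of these data known. All 36 members are named, with any gene of the other complement and marker lists and the leading and second transcripts. The values of 1 gene of the other complement list are not reported here. Samples form 1 group, so levels are mean and SD over n = 2 and no p-value was computed. Class and family values use log2(TPM + 0.1). Replicate ratios use expected counts rounded for edgeR 4.0.16 (TMM), plus 0.5, with a mean count of at least 10. DESeq2 1.42.0 size factors, totals and spike-ins were alternatives, run in R 4.3.3 and Python 3.11.15 (numpy 2.4.6, pandas 2.3.3, scipy 1.17.1, matplotlib 3.10.9). The ratio step was tested on simulated data. Exact 95% binomial intervals and limits set at 3 counts reflect counting error alone, with 39182457 and 37432977 counts on genes.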

Additional observations from a re-analysis of the deposited data

How the results depend on the processing

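The count of members at or above 1 TPM was 28 in both replicates taken singly and 25 to 33 under other thresholds. The members' share of 0.0927% was 0.160% by expected counts, and 0.0878% to 0.0977% in single replicates. Class differences from the classical median (log2) moved as follows. With posterior mean TPM the lectin difference was -0.52. With members of at least 10 counts the alternative difference reversed to 1.35, since Cfd drops out, and the terminal one was -0.92. With pseudocount 1 the terminal difference was -1.27 and that of receptors -3.14. With means of log2 values the alternative difference was -1.20, terminal -2.28, receptors -4.28, soluble regulators 0.60 and membrane regulators 0.39. The first gene was the higher in 10 of 16 family pairs with each pseudocount and in single replicates, and in 9 with posterior mean TPM. The leading transcript was the same in both replicates in 18 of 19 genes, and 16 of 19 shares moved by more than the SD when taken from counts.

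Scaling by spike-ins gave a median ratio of members of -0.71, in which 22 of 33 members, and 59.5% of all genes, were lower past 1.5-fold. With no filter, 1 member was higher past 1.5-fold: C7, with 1 count against 0. Single ratios that reversed under spike-in scaling were C1ra -0.64, C2 -0.58, Mbl1 -0.57, Colec10 -0.36, Masp1 -0.42, C3 -0.45, Cfb -0.59, Hc -0.24, C8b -0.51, C3ar1 -0.60, Cfi -0.47, Serping1 -0.57 and Cd55 -0.45. This scaling shifts all genes by -0.64, and why spike-ins differed was not tested. Within bins of transcript length, chosen after seeing the data, C1qb reversed to 0.012, and C1qa (-0.16), C3 (0.08), Cd59a (-0.07) and Cr1l (-0.03) moved; the cause was not tested. Depth limits the 8 genes below 1 TPM, whose levels rest on at most 73 counts. No paired analysis was possible because there is 1 group.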
